A study of Mus musculus with 12 samples.

Results

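The 10 genes that encode the pore-forming alpha-1 subunits of voltage-gated calcium channels in the mouse were followed in RNA-seq of the neonatal brainstem. They were chosen by name from the count table, which lists 55418 genes, and all 10 were found. RNA came from the brainstem (medulla and pons) of 12 CFW mice, an outbred Swiss Webster stock, at postnatal day 15 (P15). Each of the 4 groups, females and males given saline and females and males given morphine, held 3 mice. Morphine mice received 15 mg/kg morphine subcutaneously 2 times daily from P1 to P14, and saline mice received saline on the same schedule. Litters held both treatments, and all 12 mice were of 1 stock with no transgene or deletion. Tissue was taken 16 h after the last injection, when morphine mice were in spontaneous withdrawal, so exposure and withdrawal cannot be told apart here.

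Voltage-gated calcium channels open when the membrane is depolarized and let calcium into the cell. The alpha-1 subunit is a single long protein of 4 homologous repeats that holds the voltage sensors, the pore and the selectivity filter. High-voltage-activated channels comprise the L-type channels, which couple activity to contraction and gene expression, and the P/Q-, N- and R-type channels, which trigger transmitter release at synapses. Low-voltage-activated T-type channels open near the resting potential and carry rebound and pacemaker firing. In the brainstem, opioid receptors inhibit N- and P/Q-type channels at presynaptic terminals.

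The selectivity filter is the part of the coding sequence that best shows the division of this family. Each repeat contributes 1 acidic residue to the filter. A search of the coding sequences of GENCODE M21 found glutamate in all 4 repeats of the 7 high-voltage-activated members, and glutamate, glutamate, aspartate and aspartate in the 3 T-type members. The windows below hold 45 coding bases around the filter codon of the repeat III loop, read 5′ to 3′ on the gene's own strand, and the capitals mark the filter codon. The sequences are shown because they separate the members whose read counts are described by subfamily. They are from the reference genome, GRCm38 (mm10), and not from the mice.

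L-type Cacna1c, chr6:118654446-118656147, minus strand: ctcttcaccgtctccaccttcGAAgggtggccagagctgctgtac
L-type Cacna1d, chr14:30099234-30100731, minus strand: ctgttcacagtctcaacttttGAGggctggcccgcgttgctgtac
L-type Cacna1f, chrX:7623842-7625180, plus strand: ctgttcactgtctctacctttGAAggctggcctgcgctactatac
L-type Cacna1s, chr1:136097477-136098181, plus strand: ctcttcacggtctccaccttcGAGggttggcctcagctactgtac
P/Q-type Cacna1a, chr8:84581317-84583568, plus strand: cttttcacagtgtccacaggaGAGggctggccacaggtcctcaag
N-type Cacna1b, chr2:24650619-24651115, minus strand: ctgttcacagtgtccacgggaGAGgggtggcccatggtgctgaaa
R-type Cacna1e, chr1:154443993-154444906, minus strand: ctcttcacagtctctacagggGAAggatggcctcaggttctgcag
T-type Cacna1g, chr11:94426450-94426494, minus strand: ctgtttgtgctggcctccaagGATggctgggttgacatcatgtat
T-type Cacna1h, chr17:25383487-25383531, minus strand: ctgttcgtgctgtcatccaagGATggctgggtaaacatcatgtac
T-type Cacna1i, chr15:80376786-80376830, plus strand: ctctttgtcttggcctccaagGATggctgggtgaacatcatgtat

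The codons GAA and GAG encode glutamate, and GAT encodes aspartate. In the 7 high-voltage-activated genes an intron of the reference lies within the window, so the coordinates span more than 45 bases. In the 3 T-type genes the window lies within 1 exon. All 10 windows are exonic and protein-coding.

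The genes also differ in base composition, a property that varied with the libraries. GC content of the longest annotated transcript was 48.3% for Cacna1e, 49.6% for Cacna1d, 50.3% for Cacna1c, 52.9% for Cacna1b, 53.6% for Cacna1f and 54.1% for Cacna1s. It was 58.1% for Cacna1g, 58.4% for Cacna1a, 59.3% for Cacna1i and 60.0% for Cacna1h. The 3 T-type genes and Cacna1a therefore stood at the GC-rich end of the family. Annotated exons of a gene on the other strand overlap those of Cacna1a, Cacna1d, Cacna1h and Cacna1s, and the strand setting of the counting is not given in the sources used here. Chdh, which overlaps Cacna1d, was at 0.406 to 1.54 CPM (counts per 1000000 counts of the library), and the other 3 partners were at 0.628 CPM or lower.

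Libraries held 27850565 to 48097947 counts. The libraries differed in how their levels followed GC content. Across the 18608 genes tested, the correlation (Pearson r) of a gene's deviation from its 12-mouse mean with its GC content was 0.58, 0.68 and -0.67 in saline males 1, 2 and 3, 0.48 in morphine male 6, and between -0.51 and 0.10 in the other 8 libraries. These correlations are across genes of 1 library, which are not independent replicates. The library labelled morphine male 6 also had Xist, the X-inactivation transcript, at 380 CPM and Y-linked Ddx3y at 12.8 CPM, whereas the other 5 male libraries had Xist at 0.399 to 2.65 CPM and Ddx3y at 115 to 199 CPM. The 6 neuronal markers summed to 4632 to 5967 CPM, and markers of brainstem nuclei summed to 518 to 704 CPM. The deposited extraction text names spinal cords, but the 5 Hox markers of thoracic and lumbar cord summed to 0.123 CPM or less in each library.

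Levels are given first, because the members span a wide range in this tissue. Per kilobase of annotated exon, the N-type gene Cacna1b was the highest at 7.38 ± 0.68 CPM per kb (mean ± SD, n = 12 mice). Next came Cacna1a at 6.62 ± 1.04, Cacna1e at 5.31 ± 1.06 and the T-type gene Cacna1g at 4.78 ± 1.31 CPM per kb. Each of these 4 was higher than the next gene in the order in 9, 9, 9 and 12 of 12 mice, so the order of the first 4 was not kept in every mouse and their ranges overlapped.

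The lower positions were held by 4 L-type and 2 T-type genes. Cacna1i was at 2.85 ± 0.66 CPM per kb and Cacna1c at 2.58 ± 0.32, and each was the higher of the pair in 6 of 12 mice. Cacna1d was at 2.20 ± 0.28 CPM per kb, below Cacna1c in 11 of 12 mice, and Cacna1h at 1.01 ± 0.33, below Cacna1d in all 12. The L-type genes Cacna1f, known for its role in photoreceptors, and Cacna1s, the skeletal muscle channel, were far lower, at 0.0528 ± 0.0215 and 0.0217 ± 0.0153 CPM per kb. When the length of the transcript with the longest coding sequence was used in place of all exons, Cacna1c rose from position 6 to position 4, at 8.21 CPM per kb, and Cacna1i moved from 5 to 7. This alternative was chosen after the data were seen. The 2 lengths of Cacna1c differ because its annotated exons cover 21191 bases and that transcript 6669.

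**Figure D1:**
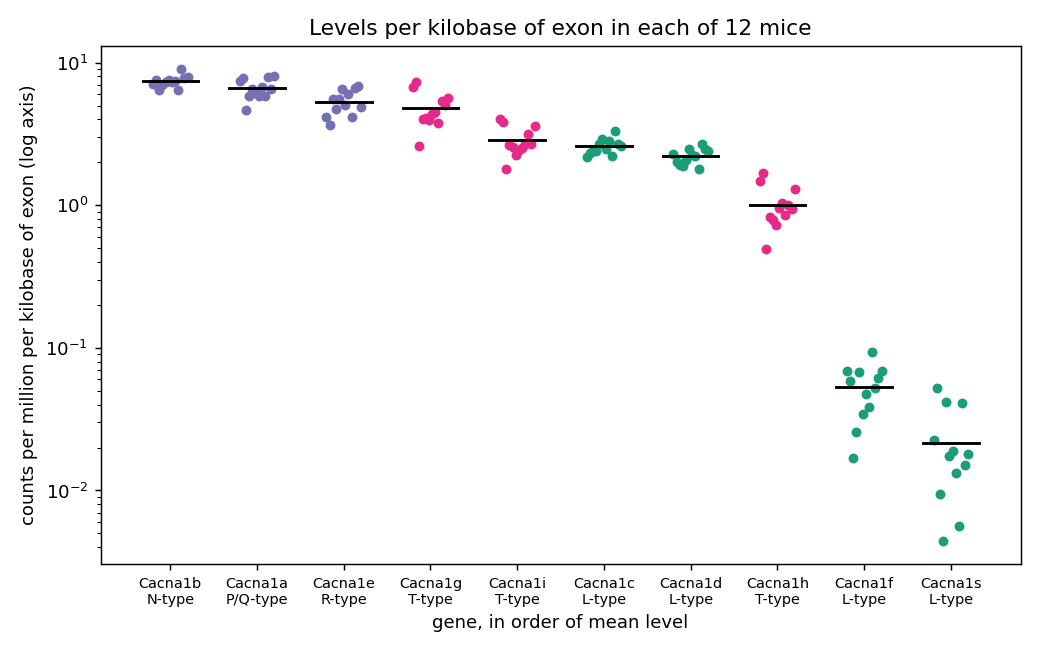
Level of each gene in CPM per kilobase of annotated exon (log axis), 1 point per mouse and a line at the mean of 12 mice, with colors for L-type, P/Q-, N- and R-type, and T-type genes. The 3 genes of the P/Q-, N- and R-type lead, and Cacna1f and Cacna1s lie lowest, at means of 0.0528 and 0.0217 CPM per kb.

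Summed per kilobase over the family, the P/Q-, N- and R-type genes held 59.1 ± 3.5% of the level (mean ± SD, n = 12), the T-type genes 26.0 ± 4.8% and the L-type genes 14.9 ± 1.3%. The share held by the T-type genes was 34.3%, 35.2% and 19.0% in saline males 1, 2 and 3. It was 21.1 to 25.6% in the saline females, 24.3 to 26.2% in the morphine females, and 24.4 to 29.0% in the morphine males. The 3 saline males thus held both the 2 highest shares and the lowest of the 12 mice, and these were also the 3 libraries with the strongest GC correlations. All these shares use the length of annotated exons. With the transcript length instead, Cacna1c and Cacna1d were at 8.21 and 4.24 CPM per kb. Cacna1g, Cacna1i and Cacna1h were then at 5.78, 2.87 and 1.19 CPM per kb. The L-type genes then stood above the T-type genes in sum, so the order of their shares depends on the length used.

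Morphine was compared with saline over both sexes to ask whether withdrawal was accompanied by a change in the transcripts of these channels. No alpha-1 subunit gene was called in the sex-combined comparison of 6 morphine with 6 saline mice. The study's thresholds were used for a call: the unadjusted p had to be under 0.05, and the log2 fold change over 0.26 in size. The test was not the study's, which was the exactTest of edgeR. Of 18608 genes tested, 1.19% were called, and none had an adjusted p under 0.05 (edgeR quasi-likelihood test with Benjamini-Hochberg adjustment). Of the 10 members 9 passed the filter on low counts, and Cacna1s did not. The 6 morphine and 6 saline mice overlapped for each of the 9, and were apart for 0.0376% of the genes tested. All 9 had a log2 fold change above 0, with a median of 0.09, whereas the median over all genes was -0.02 and 42.6% of all genes were above 0. The smallest unadjusted p of a member was 0.283, for Cacna1f. In bulk tissue, fewer cells of a type and less RNA per cell cannot be told apart.

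Among the L-type genes, Cacna1c and Cacna1d, which encode the Cav1.2 and Cav1.3 channels of neuronal cell bodies and dendrites, had sex-combined log2 fold changes of 0.11 ± 0.11 and 0.12 ± 0.11 (estimate ± SE). Cacna1b, the N-type channel that opioid receptors inhibit at terminals, had 0.09 ± 0.08. Cacna1e, the R-type channel, had 0.16 ± 0.16. The T-type genes had smaller estimates with larger errors: 0.01 ± 0.19 for Cacna1g, 0.06 ± 0.24 for Cacna1h and 0.01 ± 0.16 for Cacna1i. The unadjusted p of the 9 members ranged from 0.283 to 0.955. Without saline male 3 the sex-combined estimates of Cacna1g, Cacna1h, Cacna1i and Cacna1a were below 0, and 5 of 9 members remained above 0.

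In the females, no member was called, against 1.81% of 18109 genes. The estimates lay on both sides of 0, with 4 members above and 5 below and a median of -0.01, and the median over all genes was also -0.01. Cacna1h, the T-type channel of sensory and other excitable cells, had the largest estimate relative to its error. It was at 8.11, 7.67 and 7.14 CPM in saline females 4, 5 and 6, and at 9.36, 10.1 and 8.35 CPM in morphine females 1, 2 and 3. The 2 groups did not overlap, with each morphine female higher than each saline female, which was also so, in either direction, for 5.67% of the genes tested. The log2 fold change was 0.27 ± 0.14, with an unadjusted p of 0.0735 and an adjusted p of 1.00 in the edgeR quasi-likelihood test. It was 0.13 ± 0.13 with offsets for GC content and length. The sum of the 3 smooth muscle markers also did not overlap between the female groups, at 18.8 to 23.0 CPM in saline and 12.5 to 17.8 CPM in morphine. Acta2 and Myh11 did not overlap, but Tagln did, at 0.0917 to 0.232 CPM in saline and 0.111 to 0.174 CPM in morphine. The part of smooth muscle in the Cacna1h values was not tested.

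Cacna1e showed wide overlap in the females. It was at 120, 139 and 166 CPM in saline females 4, 5 and 6, and at 128, 151 and 104 CPM in morphine females 1, 2 and 3. The log2 fold change was -0.16 ± 0.16. Cacna1a, the P/Q-type channel of fast synapses, was at 70.5 ± 4.4 CPM in saline and 70.2 ± 5.8 CPM in morphine females (mean ± SD, n = 3).

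In the males, no member was called, against 2.99% of 18166 genes, but the 4 members with a GC content under 53% had the largest differences relative to their errors. The median log2 fold change of the 9 tested members was 0.20, with 6 above and 3 below 0, against a median of -0.06 over all genes and 37.6% of genes above 0. The absence of calls differs from the paper, which reports Cacna1c, Cacna1d and Cacna1e as upregulated in morphine males. The edgeR exactTest, which the paper used, also called none of them here, at an unadjusted p of 0.148, 0.230 and 0.0750. With total counts as library sizes, Cacna1c, Cacna1d and Cacna1e were called as higher, at 0.42 ± 0.15, 0.38 ± 0.15 and 0.56 ± 0.21. Cacna1b was called too, at 0.33 ± 0.13, among 807 of 18166 genes. In the male contrast from the fit of 12 mice, Cacna1c and Cacna1e were called, at 0.32 ± 0.13 and 0.46 ± 0.20, among 790 of 19027. In neither fit had any gene an adjusted p under 0.05. The cause of the difference from the paper was not tested.

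Cacna1e was at 105, 91.6 and 139 CPM in saline males 1, 2 and 3, and at 168, 172 and 122 CPM in morphine males 4, 5 and 6. Morphine male 6 lay below saline male 3, so the groups overlapped. The log2 fold change was 0.43 ± 0.21, with an unadjusted p of 0.0732 and an adjusted p of 1.00 (edgeR quasi-likelihood test).

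Cacna1c was at 46.1, 48.9 and 50.8 CPM in saline males 1, 2 and 3, and at 69.8, 57.1 and 55.3 CPM in morphine males 4, 5 and 6. The groups did not overlap, and the log2 fold change was 0.29 ± 0.14, with an unadjusted p of 0.0788. Cacna1d was at 29.1, 25.3 and 24.0 CPM in the saline males and at 33.8, 31.2 and 30.1 CPM in the morphine males. Its log2 fold change was 0.25 ± 0.14.

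Cacna1b was at 70.8, 74.5 and 63.6 CPM in the saline males and at 88.9, 77.2 and 78.5 CPM in the morphine males. Its log2 fold change was 0.20 ± 0.13. Cacna1b, Cacna1c and Cacna1d were the 3 of 9 tested members whose male groups did not overlap, each higher in morphine, and 8.86% of the genes tested had male groups that did not overlap in either direction.

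For the T-type genes and Cacna1a, the difference between treatments in males was smaller than the spread among the 3 saline males. Cacna1g was at 67.9, 73.5 and 26.4 CPM in saline males 1, 2 and 3, and at 54.6, 50.8 and 57.7 CPM in morphine males 4, 5 and 6. Cacna1h was at 14.3, 16.3 and 4.79 CPM in the saline males and at 9.79, 9.18 and 12.7 CPM in the morphine males. Cacna1i, the T-type gene best known from thalamic reticular neurons, was at 39.5, 37.6 and 17.8 CPM in the saline males and at 31.3, 26.6 and 35.2 CPM in the morphine males.

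For all 3 T-type genes, saline males 1 and 2 were the highest of the 12 mice and saline male 3 was the lowest, and the morphine males lay between. The log2 fold changes were -0.07 ± 0.35 for Cacna1g, -0.19 ± 0.43 for Cacna1h and -0.05 ± 0.31 for Cacna1i. Cacna1a followed the same order of the saline males, at 85.2, 89.7 and 53.2 CPM, and was at 90.8, 75.0 and 91.8 CPM in the morphine males. Oligodendrocyte markers, none of the 5 at 0, varied over the same mice. They summed to 36716 to 55295 CPM in the saline males and 31641 to 39899 CPM in the morphine males, with myelin basic protein (Mbp) at 25632, 26858 and 8366 CPM in saline males 1, 2 and 3, and to 36410 to 46376 CPM in the saline and 39340 to 44353 CPM in the morphine females. The 5 markers of cerebellar Purkinje cells, which are rich in Cacna1a, summed to 130 to 181 CPM in the saline males and 130 to 219 CPM in the morphine males, and none was at 0.

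The summed markers of 4 other lists did not overlap between the male groups, and no marker of these lists was at 0 in all 12 libraries. The 4 markers of cerebellar granule cells summed to 25.9 to 29.2 CPM in the saline males and 36.3 to 77.1 CPM in the morphine males, and 3 of the 4, Fat2, Gabra6 and Cbln3, were called as higher, at log2 fold changes of 0.81 ± 0.17, 1.35 ± 0.46 and 1.08 ± 0.42. The 3 thalamus markers summed to 44.3 to 46.6 CPM in the saline and 49.0 to 54.8 CPM in the morphine males, also higher with morphine. The sum of the 6 neuronal markers was lower with morphine. It was 4821 to 5967 CPM in the saline and 4632 to 4663 CPM in the morphine males. The sum of the 4 astrocyte markers was also lower, at 1993 to 2089 CPM in the saline and 1843 to 1903 CPM in the morphine males. Each single marker of the neuronal, astrocyte and thalamus lists overlapped between the male groups, and none of these was called in males. In the females the sums of these 4 lists overlapped between treatments. Cacna1b, Cacna1c and Cacna1d also did not overlap between the male groups. Whether they varied with these lists from mouse to mouse was not tested. The part of these cells in the values was not tested.

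**Figure D2:**
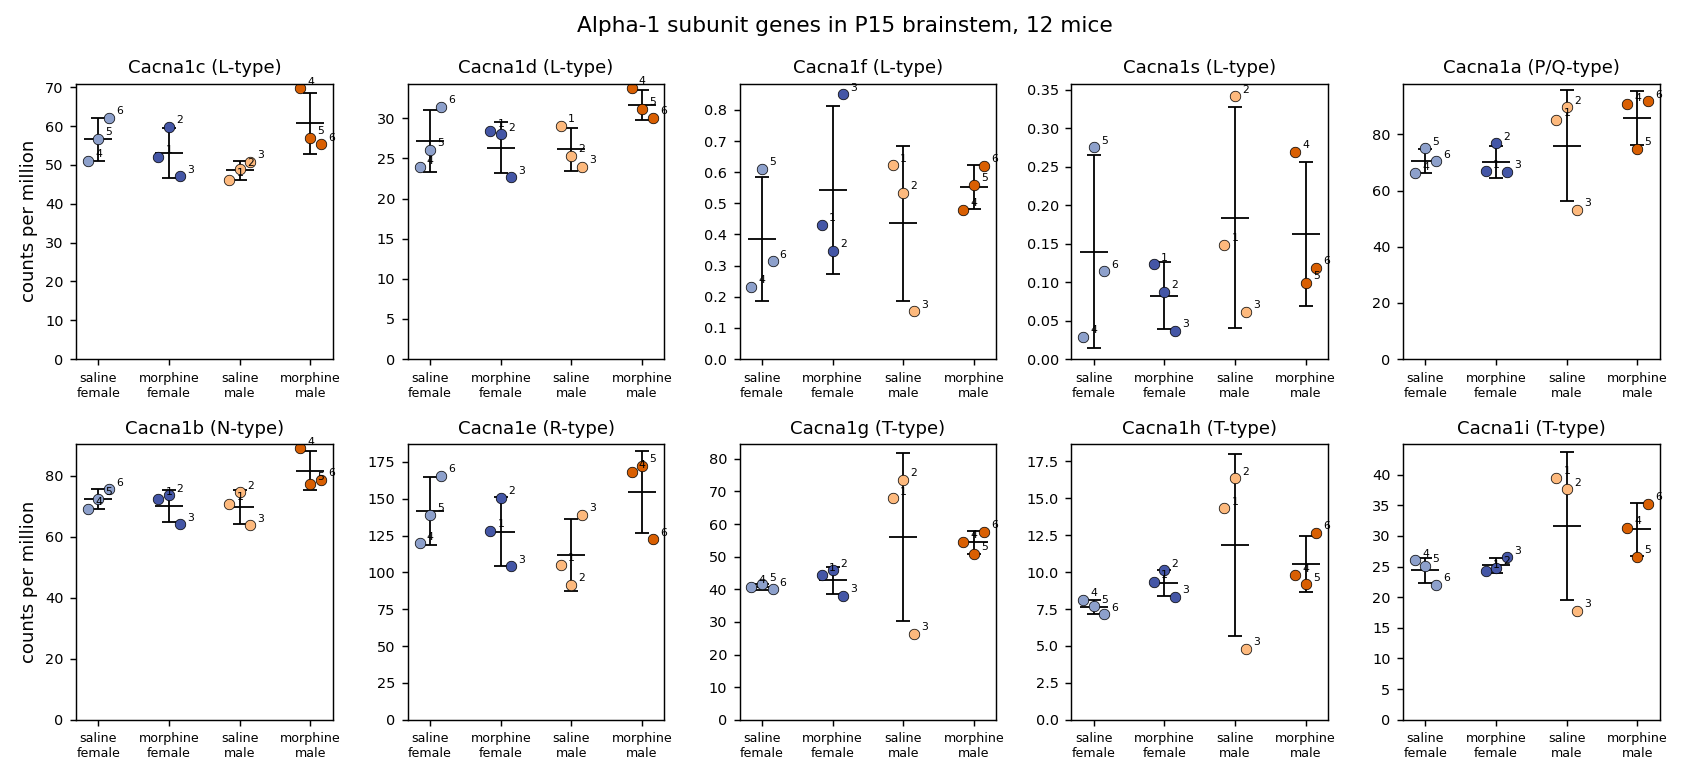
CPM of each gene in each of the 12 mice by group (linear axes from 0), with the replicate number beside each point and the group mean ± SD in black (n = 3). Saline male 3 is the lowest mouse for Cacna1g, Cacna1h and Cacna1i, at 26.4, 4.79 and 17.8 CPM, and the morphine males lie above all saline males for Cacna1b, Cacna1c and Cacna1d.

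The calls in the males depended on saline male 3. When it was left out, 5341 of 18652 genes were called instead of 543, and 4 members were among them. Cacna1e had a log2 fold change of 0.65 ± 0.14 with an adjusted p of 0.0255 (edgeR quasi-likelihood test), and Cacna1c had 0.36 ± 0.12. An adjusted p under 0.05 was also reached widely in that fit, by 2141 of 18652 genes, and by 1 of the 9 tested members. The T-type genes Cacna1g and Cacna1h then had -0.37 ± 0.11 and -0.53 ± 0.18. Members of the GC-poor and GC-rich ends thus stood on opposite sides of 0. When morphine male 6, the library with the Xist reads, was left out, Cacna1e alone of the members was called, at 0.57 ± 0.22, among 462 of 18697 genes. Leaving out saline male 1 or saline male 2 left no member called.

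The deviation of the members followed their GC content closely in some libraries and loosely in others. Among the 8 members with 150 or more counts in every library, r between a member's deviation and its GC content was 0.90, 0.94 and -0.92 in saline males 1, 2 and 3 and 0.95 in morphine male 6. It was -0.97 in saline female 6, -0.72 in saline female 5, and -0.81 and -0.78 in morphine males 4 and 5. It was weaker in saline female 4, at -0.19, and in morphine females 1, 2 and 3, at -0.54, -0.55 and 0.64. These are descriptions across 8 genes of 1 library that share its depth and preparation. The 4 GC-rich members (Cacna1a, Cacna1g, Cacna1h and Cacna1i) were set against the 3 GC-poor members (Cacna1c, Cacna1d and Cacna1e), with limits of over 58% and under 52% GC chosen after the values were seen. The mean deviation of the rich minus the poor members was 0.63, 0.81 and -0.65 log2 units in saline males 1, 2 and 3. Over the 1582 GC-rich and 12144 GC-poor genes tested, the same difference was 0.82, 1.02 and -0.85. In morphine male 6 the members gave 0.33 and all genes 0.38, and over the other 8 mice the members ranged from -0.49 to 0.11 and all genes from -0.57 to 0.04. The channel genes thus moved in the same direction as all genes beyond the same GC limits in these 4 libraries. The amounts cannot be compared, because the limits are open-ended. The members lay only at 58.1 to 60.0% and at 48.3 to 50.3% GC.

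**Figure D3:**
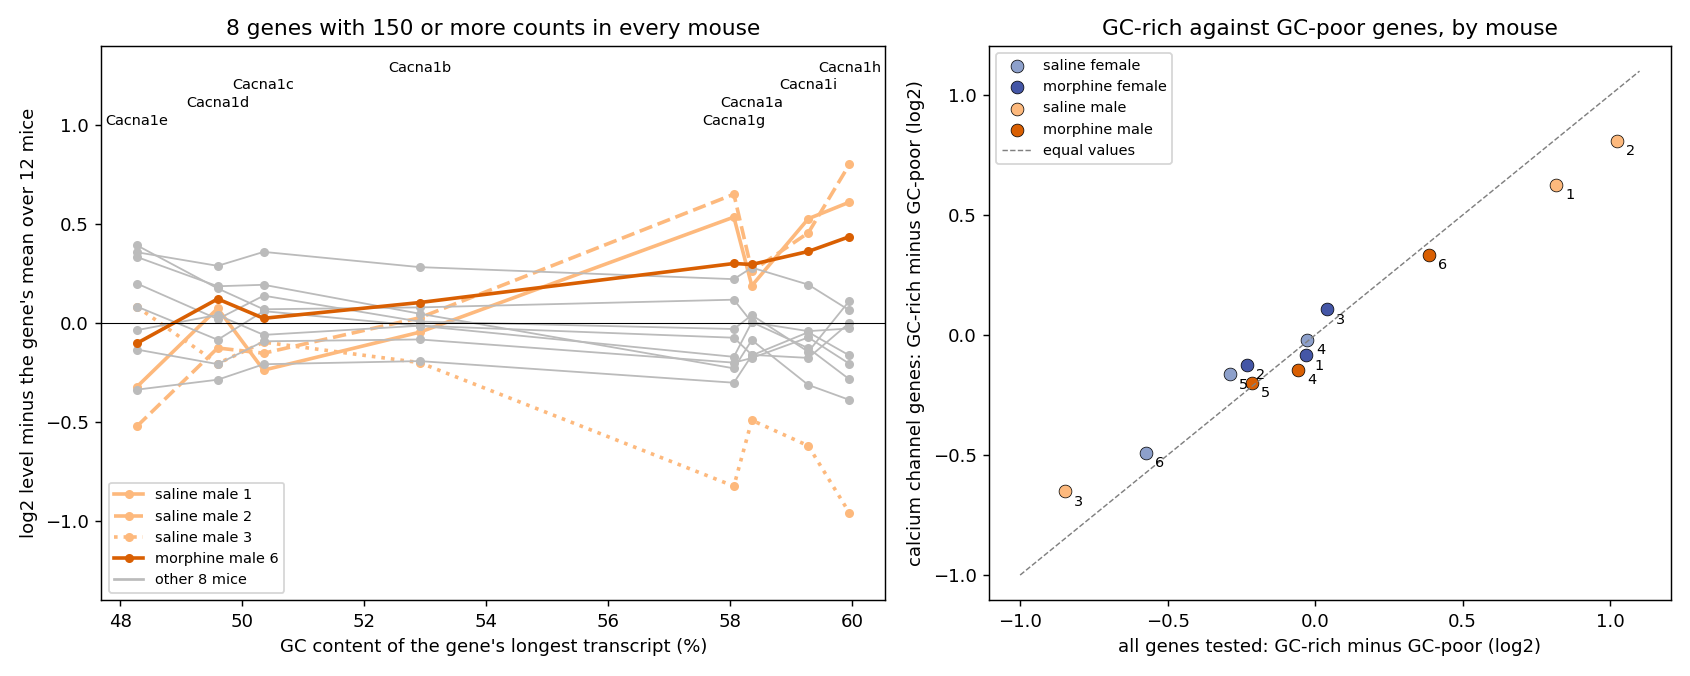
Left, the log2 level of 8 members minus each gene's mean over 12 mice, against the GC content of the gene (%), with 1 line per mouse. Right, the mean log2 deviation of the 4 GC-rich members minus that of the 3 GC-poor members in each mouse, against the same difference over all genes tested (log2), with replicate numbers and a dashed line of equal values. Saline males 1 and 2 lie at the upper right, at 0.63 and 0.81 for the members, and saline male 3 at the lower left, at -0.65.

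Of the 9 tested members, the T-type genes narrowed the most with offsets for GC content and exon length in each library. The SD of the log2 level over 12 mice was 0.40, 0.47 and 0.33 for Cacna1g, Cacna1h and Cacna1i, and 0.13 for each with the offsets. It fell from 0.30 to 0.19 for Cacna1e, and stayed at 0.23 for Cacna1a and 0.13 for Cacna1b. For Cacna1a the offsets reversed the order of the saline males. Its deviations in saline males 1, 2 and 3 were 0.19, 0.26 and -0.49, and with the offsets -0.38, -0.42 and 0.14. For Cacna1b and Cacna1i, saline male 3 also went from the lowest saline male to the highest. The median SD over all genes tested was 0.27, and 0.20 with the offsets.

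With the offsets, all 9 tested members were higher in morphine than in saline males, with a median log2 fold change of 0.21, against -0.04 over all genes, and none was among the 1239 of 18166 genes called. The T-type estimates turned from below to above 0, to 0.21 ± 0.09 for Cacna1g, 0.19 ± 0.11 for Cacna1h and 0.21 ± 0.11 for Cacna1i. Cacna1e was at 0.32 ± 0.14. Cacna1a, whose saline males reversed their order with the offsets, was at 0.31 ± 0.16. Cacna1g had an unadjusted p of 0.0452 with an adjusted p of 0.496 (edgeR quasi-likelihood test), and its fold change was under the threshold. It was the 1 member of 9 with an unadjusted p under 0.05, as were 1801 of the 18166 genes. In the females with the offsets, 2 members were above 0 and 7 below, with a median of -0.07.

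**Figure D4:**
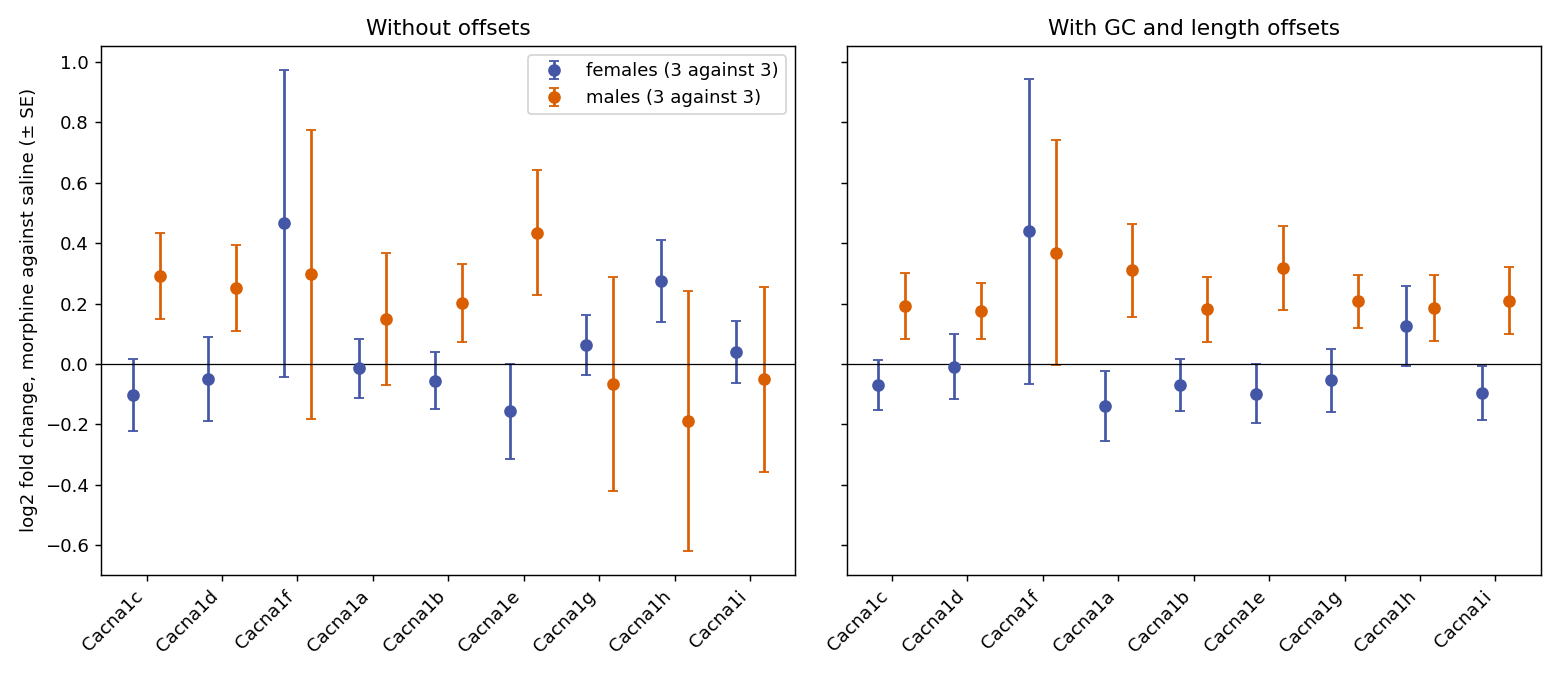
Log2 fold change of morphine against saline (± SE) for the 9 tested members in females and in males, 3 mice against 3, without offsets (left) and with GC and length offsets (right). In the males the T-type genes lie below 0 on the left and near 0.2 on the right, and the other members are above 0 in both panels.

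The interaction of treatment and sex asks whether the male and female changes differed. Of 9 tested members 2 were called, Cacna1c and Cacna1e, against 2.94% of 19027 genes, and no gene had an adjusted p under 0.05. The male change minus the female change was 0.41 ± 0.19 log2 units for Cacna1c, with an unadjusted p of 0.0472, and 0.61 ± 0.28 for Cacna1e, with an unadjusted p of 0.0488. The adjusted p was 0.985 for both in the edgeR quasi-likelihood test. In these genes the male estimate was above 0 and the female estimate below 0. Neither was called with DESeq2, where the estimates were 0.39 and 0.59. With GC and length offsets Cacna1e was called at 0.42 ± 0.18, Cacna1c was at 0.26 ± 0.14 and not called, and Cacna1a and Cacna1i were called at 0.46 ± 0.20 and 0.31 ± 0.14. In that fit 1150 of 19027 genes were called, against 559 without offsets. Cacna1a and Cacna1i are members for which the offsets moved saline male 3 from the lowest saline male to the highest. Without saline male 3, 5 members were called, among 4695 of 19472 genes. Cacna1e and Cacna1c were then at 0.77 and 0.42, and Cacna1g, Cacna1i and Cacna1h at -0.47, -0.38 and -0.85. Without morphine male 6, the library with the Xist reads, Cacna1e and Cacna1c were both called, at 0.75 ± 0.27 and 0.47 ± 0.20. In that fit 663 of 19529 genes were called. Leaving out saline male 1 or 2, saline female 5 or 6, morphine female 1 or 3, or morphine male 4 left no member called.

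Saline males were compared with saline females to describe the channels without morphine. No member was called, against 7.62% of 19027 genes, and 0.0263% of genes but no member had an adjusted p under 0.05. The T-type genes had the largest estimates, male minus female, at 0.46 ± 0.28 for Cacna1g, 0.63 ± 0.34 for Cacna1h and 0.38 ± 0.24 for Cacna1i, and Cacna1e was at -0.34 ± 0.20. In the saline females the T-type genes varied little, with Cacna1g at 40.7, 41.6 and 39.9 CPM. Cacna1c, at 51.0, 56.7 and 62.2 CPM in saline females 4, 5 and 6, was the member whose saline groups did not overlap, with the males lower, and 4.56% of the genes tested did not overlap.

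Without saline male 3, Cacna1g, Cacna1h, Cacna1i and Cacna1a were called as higher in saline males, at 0.83 ± 0.11, 1.05 ± 0.16, 0.70 ± 0.12 and 0.35 ± 0.11, and Cacna1e as lower, at -0.49 ± 0.18. In that fit 7143 of 19472 genes were called. With GC and length offsets all 9 members were below 0 and Cacna1a, whose saline males reversed their order with the offsets, was called. Its estimate was -0.33 ± 0.14, and 1081 of 19027 genes were called. The direction of the T-type and P/Q-type genes between saline males and females therefore turned with the offsets.

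Members also varied together across mice. Without offsets, the Pearson r of log2 CPM over 12 mice was 0.97 for Cacna1g with Cacna1h, 0.94 for Cacna1g with Cacna1i and 0.94 for Cacna1h with Cacna1i. Cacna1e ran opposite to them, at -0.34, -0.50 and -0.51. With the offsets these became 0.71, 0.22 and 0.05 among the T-type genes, and 0.54, 0.26 and 0.77 for Cacna1e. Cacna1a with Cacna1e went from -0.13 to 0.89, whereas Cacna1b with Cacna1c was 0.77 without and 0.92 with the offsets. These values describe 12 libraries that share depth and GC differences.

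The genes whose levels over the 12 mice were most like a member's were named by the highest Pearson r of log2 CPM. For Cacna1e they were Ntrk3 (0.99) and Ddi2 (0.97), and for Cacna1c Gm37608 (0.98) and Igsf9b (0.96). For Cacna1d they were Tmc4 (0.96) and Wnt2b (0.95), for Cacna1b Zzef1 (0.94) and Smad3 (0.91), and for Cacna1f Mrpl23 (0.91). For Cacna1a they were Rimbp2 (0.97), a protein that links presynaptic calcium channels to the release machinery, and Trrap (0.97). The T-type genes had Myo9b and Dot1l (0.99 each) for Cacna1g, Obsl1 and Slc9a5 (0.99 each) for Cacna1h, and Adcy3 and Abcg4 (0.99 each) for Cacna1i. An r over 0.9 was common for the T-type genes, with 973 genes for Cacna1g, 1761 for Cacna1h and 1790 for Cacna1i. There were 143 such genes for Cacna1e, 130 for Cacna1a, 19 for Cacna1c, 14 for Cacna1d, 7 for Cacna1b and 1 for Cacna1f.

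The 2 members with the lowest levels rest on few reads. Cacna1f had 5 to 25 counts per library and sex-combined levels of 0.411 ± 0.204 CPM in saline and 0.548 ± 0.176 CPM in morphine mice (mean ± SD, n = 6). Its log2 fold change was 0.40 ± 0.35, so no difference was detectable at this depth. Cacna1s had 1 to 16 counts per library and was not tested. Its highest level, 0.341 CPM, was in saline male 2, where the 5 skeletal muscle markers summed to 31.6 CPM, against 1.01 to 5.00 CPM in the other 11 libraries. The part of muscle tissue in the Cacna1s reads was not tested.

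The partners of the alpha-1 subunits were described from 2 lists. Auxiliary beta, alpha-2-delta and gamma subunits set the trafficking and gating of the channel, and 14 of 16 such genes were tested. None was called in the sex-combined, male or interaction comparisons. In females, where 1.81% of all genes tested were called, 1 was called as higher. That gene, Cacng8, which encodes a gamma subunit known mainly for binding AMPA receptors, was at 2.88 ± 0.32 CPM in saline and 4.00 ± 0.71 CPM in morphine females (n = 3), a log2 fold change of 0.46 ± 0.20. Between saline males and females, Cacng8 at 0.99 ± 0.37 and the beta subunit gene Cacnb1 at 0.60 ± 0.26 were called as higher in males. In that comparison 7.62% of all genes tested were called. The saline males varied widely, at 5.70 ± 2.74 CPM for Cacng8 and 36.5 ± 14.6 CPM for Cacnb1 (n = 3). The median log2 fold change of the list was 0.05 sex-combined, 0.06 in females and 0.01 in males.

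Proteins that bind the channel include calmodulin, the small GTPases that inhibit it, and the release proteins that dock vesicles at it, and all 16 listed genes were tested. None was called in the sex-combined or female comparisons. In males Stac3, an adaptor of the muscle L-type channel, was called as higher, from 1.32 ± 0.38 to 2.27 ± 0.45 CPM (n = 3), a log2 fold change of 0.75 ± 0.29. Rem1, a GTPase that inhibits these channels, was called in the interaction at -1.45 ± 0.64 and as higher in saline males than saline females at 1.28 ± 0.45, with group means under 1 CPM. Stx1a, syntaxin 1A of the release machinery, was called as higher in saline males at 0.87 ± 0.38. Its saline males were at 17.5 ± 9.6 CPM (n = 3). Of all genes tested, 2.99% were called in males, 2.94% in the interaction and 7.62% between saline males and saline females. No partner gene had an adjusted p under 0.05 in any of the 5 comparisons.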

How the data were processed

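RNA of 12 brainstems was sequenced as 100 bp single-end reads in 1 lane. The authors used scruff and Trimmomatic for preprocessing and trimming, STAR for alignment to mm10, and featureCounts with Ensembl GRCm38 exons. The deposited values are whole-number counts per gene, with totals that differ between libraries, and were treated as raw counts. The strand setting is not given in the sources used here. Dam is not among the labels and was not modelled, and none says whether mice of a group were littermates.

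Each comparison was tested with the edgeR 4.0.16 quasi-likelihood test (R 4.3.3) with TMM normalization and filterByExpr. Sex was a covariate over both sexes, each sex was fitted alone, and the interaction and the saline sex comparison came from 1 fit of 12 mice in 4 groups. Calls required a p under 0.05 before adjustment and a log2 fold change above 0.26 in size. Levels are CPM with TMM factors over 12 libraries, and logs used a prior count of 2. SE is the estimate divided by the square root of its F value. Standard errors cover the spread between 3 or 6 mice. An exact permutation test of 3 against 3 cannot go below a p of 0.1. Positions, exon lengths and GC came from GENCODE M21 on GRCm38. GC and length offsets were loess fits (span 0.5) of each library's deviations.

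Genes named were the 10 members, partner-list genes that were called (at most 4 a comparison, by p), the 2 genes most like each tested member (for Cacna1f the second is not reported here), and Xist and Ddx3y. Members and lists were chosen with earlier results of these data known. Alternatives were exactTest, DESeq2 1.42.0, other scalings and filters, offsets, the replicate block and leaving out each mouse. Scripts were tested on simulated data.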

Additional observations from a re-analysis of the deposited data

Results flagged for a closer look

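The change with morphine differed between the sexes at an unadjusted p under 0.05 for 2 of 9 tested members. The male change minus the female change was 0.61 ± 0.28 log2 units for Cacna1e and 0.41 ± 0.19 for Cacna1c, with an adjusted p of 0.985 for both (edgeR quasi-likelihood test). Over the fits that left out 1 mouse each, the estimate ranged from 0.45 to 0.77 for Cacna1e and from 0.30 to 0.51 for Cacna1c. With GC and length offsets the values were 0.42 for Cacna1e and 0.26 for Cacna1c. The part of the GC correlations of the libraries in these estimates was not tested.

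Morphine male 4 stood apart from the other 5 morphine mice for Cacna1s, at 0.269 CPM from 9 counts, where the others had 0.0369 to 0.123 CPM from 1 to 4 counts. This was 1 of 20 groups of 6 mice examined for a sample far from the others, and chance gives about 1 such sample in 20 groups.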

How the results depend on the processing

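In the sex-combined comparison no member was called under any alternative or without any 1 mouse. With the replicate block 0 members were called, as without it, and 204 genes in place of 221. The block with GC and length offsets, added after the data were seen, also gave 0. Same-numbered saline and morphine mice had deviations correlated at -0.36 to 0.18, so the numbers were not read as pairs. In the other comparisons no paired analysis was possible because the groups compared share no replicate number.

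The count of members called in males was 0, but 4 with total counts as library sizes (807 of 18166 genes called, against 543), 2 with the contrast from the fit of 12 mice (790 of 19027), and 0 to 4 without 1 mouse. In females it was 0, and 0 to 1 without 1 mouse, where Cacna1h was called at 0.34 without morphine female 3. In the interaction it was 2 (559 of 19027 genes), but 0 with DESeq2 (663), 0 with DESeq2 size factors (554), 1 without the filter on low counts (1665 of 37483), 3 with total counts (701), 3 with GC and length offsets (1150), and 0 to 5 without 1 mouse. Between saline males and saline females it was 0, but 2 without the filter (3018 of 37483 genes), 1 with GC and length offsets (1081 of 19027), and 0 to 5 without 1 mouse.

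GC and length offsets turned the sign of 13 estimates. In females they gave -0.054 for Cacna1g and -0.10 for Cacna1i. In males they gave 0.21 for Cacna1g, 0.19 for Cacna1h and 0.21 for Cacna1i. In the interaction they gave 0.27 for Cacna1g, 0.066 for Cacna1h and 0.31 for Cacna1i. Between saline males and females they gave -0.33 for Cacna1a, -0.017 for Cacna1f, -0.080 for Cacna1g, -0.058 for Cacna1h and -0.18 for Cacna1i. Total counts gave 0.057 for Cacna1g and 0.074 for Cacna1i in males and 0.027 for Cacna1i in the interaction, and without the filter Cacna1i was at -0.0028 sex-combined. The cause was not tested.

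Leaving out 1 mouse also turned signs. The sex-combined estimates ranged from -0.032 to 0.13 for Cacna1a, -0.15 to 0.13 for Cacna1g, -0.11 to 0.22 for Cacna1h and -0.13 to 0.097 for Cacna1i. In females they ranged from -0.085 to 0.036 for Cacna1a, -0.092 to 0.0045 for Cacna1b, -0.14 to 0.082 for Cacna1d and -0.019 to 0.085 for Cacna1i. In males they ranged from -0.019 to 0.29 for Cacna1a, -0.050 to 0.60 for Cacna1f, -0.37 to 0.18 for Cacna1g, -0.53 to 0.12 for Cacna1h and -0.30 to 0.13 for Cacna1i. The interaction ranged from -0.045 to 0.32 for Cacna1a, -0.66 to 0.30 for Cacna1f, -0.47 to 0.13 for Cacna1g and -0.38 to 0.12 for Cacna1i. Between saline males and females the estimates ranged from -0.025 to 0.35 for Cacna1a, -0.10 to 0.045 for Cacna1b, -0.14 to 0.11 for Cacna1d and -0.11 to 0.72 for Cacna1f. With 1 mouse left out of 3, the fits rest on 5 or 11 mice. Depth limits Cacna1f and Cacna1s, with 25 counts or fewer per library.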
